A study of Danio rerio with 4 samples.

Results

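Hepatocytes of zc3h8-/- mutant zebrafish larvae were compared with hepatocytes of wild-type larvae at 7.5 days post fertilization (dpf), by the level of each gene's RNA in 1 library a genotype. The genes described are the 3645 of 13003 listed in the deposited comparison of these 2 libraries (28.03%) that had at least 10 reads per 1000000 counted reads (CPM) in both. For each of them the log2 ratio of mutant over wild type was taken, and the gene was described by its symbol and by the Description that the authors' table gives it. The minimum used levels and not the ratio, but it leaves out genes that are at or near 0 in one of the libraries, which are given separately. Both groups, and the mutant and wild-type libraries at 5.5 dpf that stand beside them, came from strain ABGO and carried Tg(lfabp:Dendra2-NTR). This transgene puts the fluorescent protein Dendra2 joined to a nitroreductase under a promoter of liver fatty acid binding protein, so that liver cells glow. Larval livers were dissected and taken apart with trypsin, cells were sorted by flow cytometry, and their RNA was amplified as full-length cDNA (Smart-seq2) and sequenced. How many larvae went into a library, the mutant allele and whether nitroreductase was ever activated are not stated in the labels. With 1 library a group there is no replicate, no test and no error between animals, and each value below is a size in these libraries alone.

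The zc3h8 gene encodes a zinc finger protein of the CCCH class, known in mammals as a subunit of the little elongation complex, which serves the transcription of small nuclear RNA genes. Small nuclear RNAs are the RNA core of the spliceosome. Hepatocytes make most plasma proteins and run gluconeogenesis, urea and amino acid metabolism, bile acid synthesis and the breakdown of foreign compounds. No gene in the symbol table carried the name zc3h8, so that the genotype labels were not checked by the targeted gene.

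Reads counted to listed genes came to 29647463 in the mutant and 36999231 in the wild-type library at 7.5 dpf, and to 36353031 and 35959621 in the mutant and wild-type libraries at 5.5 dpf. The kept genes held 86.8% of the reads of the 7.5 dpf mutant library and 92.9% of those of the wild-type library. The least covered of them had 297 reads in the mutant and 370 reads in the wild-type library. Counting error of reads was therefore small, with 95% intervals of the ratio that spanned 1.15-fold at the median and 1.36-fold at the widest. These intervals cover counting error only and treat each read as independent. PCR copies without molecular identifiers are not independent molecules, so that the intervals are too narrow for the sampling of molecules. Levels are in CPM of each library's counted reads. In bulk RNA of this kind, fewer cells of a type and less RNA per cell cannot be told apart.

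Differences between the libraries were large for many genes and leaned towards the mutant. Of the 3645 kept genes, 1111 (30.5%) were at least 2-fold higher and 616 (16.9%) at least 2-fold lower in the mutant library, and 1918 (52.6%) lay within 2-fold. A 4-fold difference was reached by 356 genes (9.77%) on the higher and 194 (5.32%) on the lower side, and an 8-fold one by 75 (2.06%) and 42 (1.15%). The median log2 ratio was 0.33, with quartiles of −0.57 and 1.21. That lean depends on the scaling: the median moved by −0.33 when the 2 libraries were scaled to a median ratio of 1, which left 773 genes 2-fold higher and 829 lower, and by −0.44 under scaling by the trimmed mean of M values (TMM), which left 703 higher and 912 lower. Gene groups are for this reason set against the median of 0.33 and the shares of 30.5% and 16.9% over all kept genes. Of all 13003 listed genes, 2968 (22.8%) reached the minimum of 10 CPM only in the mutant and 1682 (12.9%) only in the wild-type library, and counts of list members left out on 1 side are to be read against these shares.

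**Figure D1:**
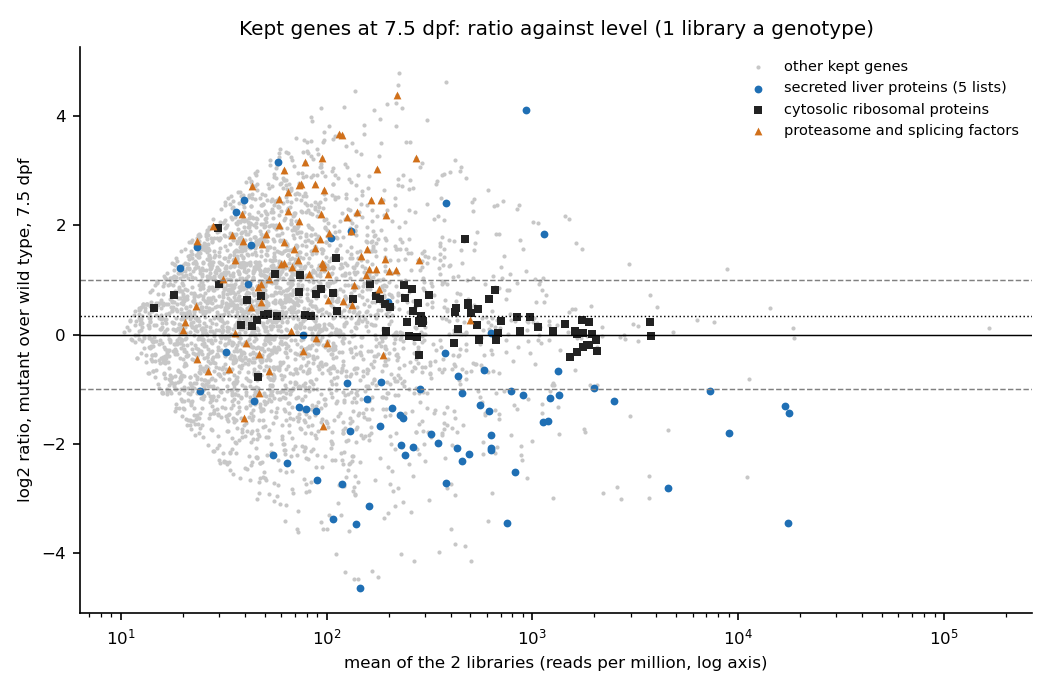
Log2 ratio of mutant over wild type at 7.5 dpf (vertical axis) against the mean of the 2 libraries in CPM (horizontal log axis), 1 point a kept gene, with 3 gene groups in colour, dashed lines at 2-fold and a dotted line at the median of 0.33. The minimum of 10 CPM in both libraries makes the slanted left edges; secreted liver proteins lie mostly below 0, cytosolic ribosomal proteins in a narrow band around the median and most proteasome and splicing genes above it.

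Hepatocyte markers, which check the labelled cell type, were present in both libraries at unequal levels. All 16 listed hepatocyte markers passed the minimum, and their summed level was 20712 CPM in the mutant library (2.07% of reads) and 86703 CPM in the wild-type library (8.67%). Of these markers 14 were 2-fold lower, none was 2-fold higher and the median log2 ratio was −2.02. The gene fabp10a, for the liver fatty acid binding protein, had 4048 CPM in the mutant library and 14029.5 CPM in the wild-type library. The asialoglycoprotein receptor gene asgr1a, whose product clears glycoproteins from blood, had 28.7 CPM in the mutant library and 506 CPM in the wild-type library. At 5.5 dpf the summed level of the 16 listed markers was 49599 CPM in the mutant and 105278 CPM in the wild-type library, so that the 7.5 dpf mutant library was the lowest of the 4.

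Markers of other cells were present in both 7.5 dpf libraries, and several lists differed between them. Macrophage markers summed to 1886 CPM in the mutant and 233 CPM in the wild-type library. Of 29 listed members 6 were kept, 5 of them 2-fold higher and 1 lower, 18 reached 10 CPM only in the mutant library and none only in the wild-type library, beside 22.8% and 12.9% of all listed genes. Members with 0 reads in the wild-type library included coro1a, ncf1, marco and spi1, which encode proteins of phagocytes and their master regulator PU.1. They had 146, 110.02, 67.9 and 66.1 CPM in the mutant library. Such a 0 was common: of the 2968 listed genes past the minimum only in the mutant library, 1753 had 0 reads in the wild-type library. Neutrophil markers summed to 1933 CPM in the mutant and 768 CPM in the wild-type library. Both sums depend much on pgd (mutant 434 and wild-type 425 CPM) and cfl1l (mutant 556 and wild-type 268 CPM), which other cells also make. Of 11 listed members 4 were kept, 3 of them 2-fold higher and none lower. Another 6 reached 10 CPM only in the mutant and 1 only in the wild-type library, beside 22.8% and 12.9% of all listed genes. Stellate and mesenchymal markers summed to 4385 and 1393 CPM in mutant and wild type, with 8 of 11 kept members 2-fold higher and 1 lower. Of the 33 listed members 8 reached 10 CPM only in the mutant library, a share close to the 22.8% of all listed genes. Another 2 reached it only in the wild-type library, beside 12.9% of all listed genes. The smooth muscle light chain gene myl9 (ENSDARG00000008030) had 405 CPM in the mutant library and 28.7 CPM in the wild-type library and tagln, for a binding protein of actin, had 324 CPM in the mutant library and 33.6 CPM in the wild-type library. Exocrine pancreas markers, which encode digestive enzymes, went the other way: they summed to 805 CPM in the mutant and 3251 CPM in the wild-type library. Of 21 listed members 13 reached 10 CPM only in wild type and none only in the mutant library, beside 12.9% and 22.8% of all listed genes. The trypsin gene prss59.2 had 229.7 CPM in the mutant library and 605 CPM in the wild-type library, and the elastase gene cela1 (ENSDARG00000017314) had 47.99 CPM in the mutant library and 243 CPM in the wild-type library.

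Biliary and skin lists had high summed levels that were close in both libraries, while single members went either way. Of 12 kept biliary members 6 were 2-fold higher and 1 lower (median 1.02), beside 30.5% and 16.9% of all kept genes. Of 20 kept skin members 5 were 2-fold higher and 1 lower (median 0.27). Biliary markers, several of which are keratins and cell adhesion genes that other epithelia share, summed to 16521 CPM in the mutant and 18281 CPM in the wild-type library, and skin markers to 22503 and 26105 CPM in mutant and wild type. The keratin gene krt4, the most abundant kept member of both lists, had 8154 CPM in the mutant library and 14391 CPM in the wild-type library. Both sums therefore depend much on krt4. By contrast krt8 had 2608 CPM in the mutant library and 882 CPM in the wild-type library. Intestine markers, some of which (such as pck1) the liver also makes, summed to 3636 CPM in the mutant and 5334 CPM in the wild-type library. Of 6 kept members 4 were 2-fold lower and none higher (median −1.20). Members that the minimum left out went the other way. Of the 12 listed 4 reached 10 CPM only in the mutant and none only in the wild-type library, beside 22.8% and 12.9% of all listed genes. These 4 include the glucagon gene gcga, which is counted again under endocrine pancreas markers. Muscle and lens markers summed to 2753 and 2238 CPM in mutant and wild type. Of 9 kept members 6 were 2-fold higher and 1 lower (median 1.37). The lower one, the enolase gene eno3, had 264 and 1621 CPM and weighs much in the wild-type sum. Of 26 listed members 13 reached 10 CPM only in the mutant and 1 only in the wild-type library, beside 22.8% and 12.9% of all listed genes. Neural markers summed to 521 and 127 CPM and endothelial markers to 411 and 207 CPM in mutant and wild type. Endocrine pancreas markers had 399 CPM in the mutant library, most of it the glucagon gene gcga at 314 CPM, and 0 reads in the wild-type library. Lymphoid markers summed to 29.8 and 28.1 CPM and erythroid and thrombocyte markers to 116 and 53.3 CPM in mutant and wild type, with no member kept. What part these cells have in the gene differences below was not tested.

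**Figure D2:**
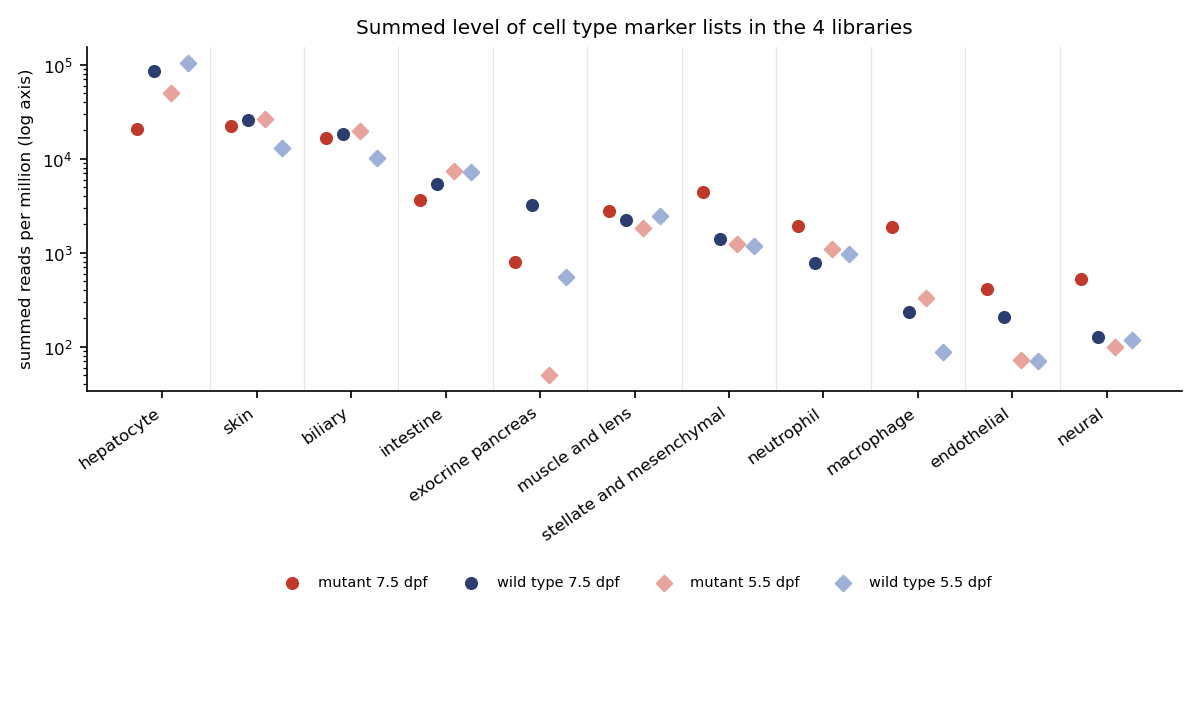
Summed CPM (log axis) of 11 lists of cell type markers in each of the 4 libraries, 1 point a library. The 7.5 dpf mutant library is lowest for hepatocyte and intestine markers. It is highest for muscle and lens, stellate, neutrophil, macrophage, endothelial and neural markers.

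The 12 highest ratios among genes with a symbol belonged to genes of varied function. The first was rpz5, a member of the rapunzel family of fish genes, at 434 CPM in the mutant and 15.7 CPM in the wild-type library, 27.7-fold higher (95% counting interval 25.5 to 30.1). The glycolytic gene gapdhs followed at 24.5-fold (mutant 728 and wild-type 29.8 CPM), then hspb1, a small heat shock protein gene, at 23.7-fold (mutant 427 and wild-type 17.97 CPM). The gene snrpd2, for an Sm core protein of the spliceosome, was 20.8-fold higher (mutant 420.2 and wild-type 20.2 CPM). Next to it stood tm4sf21a, described as a 4-pass membrane protein of the L6 family, at 21.9-fold, c1ql1, of the C1q-like family, at 18.8-fold, and arhgdig, a GDP dissociation inhibitor by its Description, at 18.7-fold. Of the other 5 among the 12 highest, nkapl was 17.9-fold, the replacement histone gene h3f3b.1 17.7-fold and the lysosomal protease gene ctsl.1 17.7-fold higher. The chemokine gene ccl25b was 17.3-fold higher (mutant 320.04 and wild-type 18.5 CPM). The last of the 12, apoeb, encodes apolipoprotein E, a lipid carrier that macrophages and skin also make, and was 17.2-fold higher (mutant 1751 and wild-type 102 CPM). Apart from apoeb, all of these 12 had under 50 CPM in the wild-type library.

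The 12 lowest ratios among genes with a symbol, of which 11 are given here, belonged mostly to secreted proteins, receptors and enzymes of liver. Lowest of all was apob (ENSDARG00000042780), an apolipoprotein B gene whose product is the scaffold of very low density lipoprotein, 24.7-fold lower in the mutant library (mutant 11.3 and wild-type 280.1 CPM; 95% counting interval 22.2 to 27.6). Then came itih3a.1, a heavy chain of the inter-alpha-trypsin inhibitors of plasma, at 22.3-fold lower (mutant 12.2 and wild-type 272 CPM), and an alpha-2-macroglobulin gene, si:ch211-212c13.8, at 22.2-fold lower (mutant 11.7 and wild-type 261 CPM). The amino acid transporter gene slc38a4 had 53.7 CPM in the mutant library and 949.7 CPM in the wild-type library, a 17.7-fold difference, and asgr1a was 17.6-fold lower. Enzyme genes among the 12 lowest were cmbl, a hydrolase, at 16.2-fold, lpin1, a phosphatidate phosphatase of triglyceride synthesis, at 15.8-fold, ftcd, of histidine breakdown, at 14.6-fold, and the cytochrome P450 gene cyp2n13 at 14.2-fold lower. Also among them were si:ch211-288g17.4, which carries no Description, at 20.2-fold and si:ch1073-464p5.5, described as similar to a stonustoxin subunit, at 16.05-fold lower.

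In CPM the largest losses were mostly abundant liver transcripts, and the most abundant feature hardly differed. The fetuin gene fetub took 2942 CPM in the mutant and 31975 CPM in the wild-type library, 10.9-fold lower and the largest loss among kept genes. After it came an apolipoprotein A-I gene (ENSDARG00000086583; mutant 9559 and wild-type 25863 CPM), gapdh (mutant 3121 and wild-type 18964 CPM), apoa2 (mutant 9696 and wild-type 23923 CPM), fabp10a, the transferrin gene tfa (mutant 1145 and wild-type 8023 CPM), krt4 and the pyruvate kinase gene of liver pklr (mutant 828 and wild-type 6532 CPM). The most abundant feature of both libraries, ENSDARG00000080337, has neither symbol nor Description in the sources used here. It held 172128 CPM in the mutant and 157950 CPM in the wild-type library, a 1.09-fold difference that was also the largest gain in CPM. Its recovered reads were 5103437 in the mutant and 5844157 in the wild-type library, and its log2 ratio of 0.12 became −0.31 under TMM scaling. Further large gains were those of ENSDARG00000070212 (2.31-fold) and ENSDARG00000082753 (1.41-fold), which lack a name as well, of si:dkey-153m14.1 (2.43-fold) and of the actin genes actb1 (mutant 2458 and wild-type 567 CPM) and actb2 (mutant 4629 and wild-type 2792 CPM). The lysosomal membrane gene cd63 (mutant 2354 and wild-type 524 CPM) and krt8 completed the 8 largest gains.

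Genes of plasma carriers and fetuins were nearly all lower in the mutant library. Of 14 kept members 13 were 2-fold lower, none was 2-fold higher and the median log2 ratio was −2.07. The list summed to 15272 CPM in the mutant and 71479 CPM in the wild-type library. It shares fetub, fabp10a and ahsg1, among others, with the hepatocyte markers, so that the 2 lists are not separate results. The apolipoprotein and acute phase lists also share genes with the markers, such as apoa2 and a2ml. After fetub, ahsg1, for a fetuin that binds calcium phosphate, had the largest ratio (mutant 33.02 and wild-type 290.1 CPM; 8.78-fold lower). Its relative ahsg2 lay outside the minimum with 2.63 CPM in the mutant and 906 CPM in the wild-type library. The single member that was not 2-fold lower was agt, the angiotensinogen gene, with 636 CPM in the mutant library and 621 CPM in the wild-type library, a gene chosen after its value was seen.

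Apolipoproteins, which carry lipid in plasma, had 12 of 15 kept members 2-fold lower and 1 higher, with a median of −1.30. The A-I gene and apoa2 were 2.71-fold and 2.47-fold lower. The list held the lowest log2 ratio of all kept genes, that of apob at −4.63, and 1 of the 12 highest, that of apoeb at 4.1. The second apolipoprotein B gene kept, apobb.1, named here after its value was seen, was 2.11-fold lower (mutant 294 and wild-type 619 CPM). Of the 22 listed 1 reached 10 CPM only in the mutant and 2 only in the wild-type library, beside 22.8% and 12.9% of all listed genes. These were apoa1a, with 57.5 CPM in the mutant and 0 reads in the wild-type library, and, on the wild-type side, apod and lipc. The gene apod had 7.25 CPM in the mutant and 38.8 CPM in the wild-type library, and lipc 0 reads and 14.9 CPM.

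Serine protease inhibitors were split. Of 18 kept members 10 were 2-fold lower and 5 higher (median −1.12). Both of the most abundant, serpina1l, an alpha-1-antitrypsin gene, and serpinf2b, an inhibitor of plasmin, were lower (mutant 1507 and wild-type 3481 CPM for serpina1l, mutant 1031 and wild-type 1639 CPM for serpinf2b). The 2 largest ratios were those of antiproteinase genes, ENSDARG00000091800 at 10.97-fold lower (mutant 23.3 and wild-type 255 CPM) and a second one at 10.4-fold lower.

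Most kept coagulation and complement genes that passed 2-fold were lower. Of 17 coagulation and fibrinolysis genes 11 were 2-fold lower and 2 higher (median −1.21). The fibrinogen chain gene fgg had 1343 CPM in the mutant library and 2654 CPM in the wild-type library, just within 2-fold, whereas f7 (ENSDARG00000034862), for clotting factor VII, was 6.31-fold lower (mutant 24.5 and wild-type 155 CPM) and the plasminogen gene plg 4.94-fold lower (mutant 152 and wild-type 753 CPM). Of 14 complement genes 7 were 2-fold lower and 3 higher (median −0.99). A factor H gene, ENSDARG00000094496, an inhibitor of the alternative pathway, had 857 CPM in the mutant library and 1832 CPM in the wild-type library. The 3 members that were 2-fold higher were cfd, the protease that starts the alternative pathway (mutant 1782 and wild-type 498 CPM), c7b (mutant 67.02 and wild-type 12.1 CPM), of the membrane attack complex, and c3a.2, a copy of C3 (mutant 60.04 and wild-type 12.6 CPM). Of the 33 listed complement genes another 7 reached 10 CPM only in the mutant library, a share close to the 22.8% of all listed genes, and 8 only in the wild-type library, where the share of all listed genes was 12.9%.

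Acute phase genes, which the liver switches in inflammation, were more often lower than higher in the mutant library. Of 6 kept members 4 were 2-fold lower and 1 was higher (median −2.41). The higher one, ENSDARG00000053227, is described as hepcidin-2, the peptide hormone that blocks iron export, and had 1051 CPM in the mutant library and 169 CPM in the wild-type library, 6.22-fold higher. The alpha-2-macroglobulin gene a2ml, for a broad protease inhibitor, had 68.5 CPM in the mutant library and 558 CPM in the wild-type library, 8.14-fold lower. Of the 13 listed 1 reached 10 CPM only in the mutant and 4 only in the wild-type library, beside 22.8% and 12.9% of all listed genes. The serum amyloid gene saa2 had 94.6 CPM in the mutant and 0 reads in the wild-type library. On the other side crp3, described as a pentraxin (the family of C-reactive protein), had 8.36 CPM in the mutant and 72.6 CPM in the wild-type library.

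Genes of gluconeogenesis and glycolysis were more often lower than higher in the mutant library, and some isozyme genes went opposite ways. Of 21 kept members 10 were 2-fold lower and 3 higher (median −0.92), and the list summed to 12476 CPM in the mutant and 46308 CPM in the wild-type library. The pyruvate kinase gene pklr was 7.88-fold lower (mutant 828 and wild-type 6532 CPM). The 2 glyceraldehyde-3-phosphate dehydrogenase genes went opposite ways, gapdh at 6.08-fold lower and gapdhs at 24.5-fold higher. Per length (RPKM), gapdh was still the larger in both libraries, with 1582 RPKM in the mutant and 9612 RPKM in the wild-type library against 502 and 20.5 RPKM of gapdhs in mutant and wild type. A further pair, named after its values were seen, was eno3 (mutant 264 and wild-type 1621 CPM, 6.13-fold lower) against eno1 (mutant 57.8 and wild-type 19.5 CPM, 2.96-fold higher). The gluconeogenic genes fbp1b (mutant 279 and wild-type 2228 CPM) and g6pc1 (mutant 826 and wild-type 2720.1 CPM), picked in the same way, were 7.98-fold and 3.29-fold lower. The gene pck1, for the first committed enzyme of gluconeogenesis, was within 2-fold, with 1884 CPM in the mutant library and 2213 CPM in the wild-type library.

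Most kept genes for the breakdown of foreign compounds and for bile acids that passed 2-fold were lower. None of 21 kept cytochrome P450 genes was 2-fold higher and 12 were 2-fold lower (median −1.57). The gene cyp2ad2 had 104 CPM in the mutant library and 1107 CPM in the wild-type library, 10.7-fold lower, and ENSDARG00000045627, described as cytochrome P450 3A27, was 19.9-fold lower (mutant 15.9 and wild-type 316 CPM). Another 5 of the 56 listed P450 genes reached 10 CPM only in the mutant library and 20 only in the wild-type library, beside 22.8% and 12.9% of all listed genes. Conjugating enzymes were more evenly spread, with 8 of 20 lower and 4 higher (median −0.85). Both of the most abundant, a glutathione S-transferase gene (ENSDARG00000005039; mutant 1306 and wild-type 1103 CPM) and the sulfotransferase gene sult6b1 (mutant 471 and wild-type 389.6 CPM), lay within 2-fold, while a second glutathione S-transferase gene, ENSDARG00000057338, was 11.98-fold higher (mutant 199 and wild-type 16.6 CPM) and the glucuronosyltransferase gene ugt5b4 9.80-fold lower (mutant 21.7 and wild-type 212 CPM).

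Of 9 kept genes of bile acid synthesis and transport 5 were 2-fold lower and 2 higher (median −1.65). The rate-limiting enzyme gene cyp7a1 had 49.3 CPM in the mutant library and 464 CPM in the wild-type library, 9.41-fold lower. At 5.5 dpf cyp7a1 stood at 7.92 CPM in the mutant and 18.1 CPM in the wild-type library, so that the high value is that of the 7.5 dpf wild-type library. The bile salt export pump gene abcb11 had 24.2 CPM in the mutant library and 203 CPM in the wild-type library and abcc2, for a pump of conjugated bile constituents, had 223 CPM in the mutant library and 700 CPM in the wild-type library. The lipid transfer gene scp2a was 1.61-fold lower (mutant 365 and wild-type 587 CPM). The higher pair, named after their values were seen, were the organic anion carrier gene slco2b1 (mutant 166 and wild-type 27.8 CPM) and nr1h4, the bile acid receptor gene (mutant 137 and wild-type 60.03 CPM).

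Most kept lipid metabolism genes that passed 2-fold were lower as well. Of 17 kept genes of fatty acid oxidation 8 were 2-fold lower and 2 higher (median −0.93), with acaa2, a thiolase of mitochondria, at 320.1 CPM in the mutant library and 863 CPM in the wild-type library, etfb, of electron transfer from acyl-CoA dehydrogenases, at 434 CPM in the mutant library and 626 CPM in the wild-type library, and the dehydrogenase gene acadl at 5.18-fold lower (mutant 38.9 and wild-type 202 CPM). Of 7 genes of fatty acid and triglyceride synthesis 5 were 2-fold lower and none higher (median −1.08), among them lpin1 (mutant 41.96 and wild-type 662 CPM), me1, the malic enzyme gene that supplies NADPH (mutant 51.6 and wild-type 198 CPM), and dgat2, of the last step of triglyceride synthesis (mutant 36.3 and wild-type 177 CPM). The wild-type library at 7.5 dpf stood alone in lpin1, which had 40.8 CPM in the mutant and 23.97 CPM in the wild-type library at 5.5 dpf. Only 4 of 12 genes of the sterol synthesis list were kept, 3 of them lower and acat2 higher (mutant 90.5 and wild-type 16.5 CPM). Among the lower ones were msmo1 (mutant 31.3 and wild-type 136 CPM) and ldlra (mutant 31.1 and wild-type 212 CPM). The list holds ldlra although it encodes the low density lipoprotein receptor and not an enzyme of synthesis. Another 5 of the 12 reached 10 CPM only in the mutant and 2 only in the wild-type library, beside 22.8% and 12.9% of all listed genes. The median of the list was −1.91 over kept genes and changed sign to 1.69 when genes with 10 CPM in at least 1 library were taken.

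Amino acid metabolism showed no gene that was 2-fold higher among 30 kept genes of amino acid breakdown, and 16 that were 2-fold lower (median −1.22). The most abundant, agxt (ENSDARG00000018478), which converts glyoxylate to glycine, had 2088 CPM in the mutant library and 7028 CPM in the wild-type library, and arg2, an arginase gene, had 669 CPM in the mutant library and 933 CPM in the wild-type library. The gene ftcd had 60.2 CPM in the mutant library and 879.8 CPM in the wild-type library and tdo2 (ENSDARG00000071429), which opens tryptophan breakdown, had 96.9 CPM in the mutant library and 741 CPM in the wild-type library. Of 11 genes of methionine and one-carbon metabolism 8 were 2-fold lower and 1 higher (median −1.43). The remethylation gene bhmt was 3.45-fold lower (mutant 806 and wild-type 2781 CPM), aldh1l1, of folate metabolism, 6.66-fold lower (mutant 105 and wild-type 700.4 CPM) and mat1a, which makes S-adenosylmethionine, 1.57-fold lower (mutant 1256 and wild-type 1968 CPM).

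Antioxidant enzymes and iron handling lay nearer to the middle. Of 24 antioxidant genes 6 were 2-fold lower and 3 higher (median −0.18). The glutathione peroxidase gene gpx4a, which repairs oxidised membrane lipid, had 1576 CPM in the mutant library and 4403 CPM in the wild-type library, the peroxiredoxin gene prdx1 (ENSDARG00000025350) 868 CPM in the mutant library and 1634 CPM in the wild-type library, and the mitochondrial and extracellular superoxide dismutase genes sod2 and sod3 were 6.09-fold and 4.02-fold lower (mutant 35.21 and wild-type 214 CPM for sod2, mutant 21.4 and wild-type 86.0 CPM for sod3). Of 11 iron genes 4 were 2-fold higher and 2 lower, beside 30.5% and 16.9% of all kept genes. Their median of 0.19 was −0.14 under median-ratio and −0.25 under TMM scaling. Transferrin (tfa) was 7.01-fold lower, the ferritin gene fthl27 2.02-fold higher (mutant 1372 and wild-type 680 CPM) and steap4, an iron and copper reductase gene, 5.15-fold higher (mutant 264 and wild-type 51.4 CPM).

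Kept genes of hepatocyte transcription factors were more often higher than lower in the mutant library, unlike most kept genes of secreted liver proteins. Of 11 kept factor genes 6 were 2-fold higher and 1 was lower in the mutant library (median 1.07). What part cells other than hepatocytes have in these values was not tested. The pioneer factor gene foxa2 had 102 CPM in the mutant library and 23.2 CPM in the wild-type library, 4.39-fold higher, and cebpg had 68.7 CPM in the mutant library and 16.97 CPM in the wild-type library. The gene cebpb, whose product also drives acute phase genes, had 870.01 CPM in the mutant library and 413 CPM in the wild-type library, and cebpd was level at 967 CPM in the mutant and 914 CPM in the wild-type library. Named after their values were seen, hnf4a, a nuclear receptor at the centre of hepatocyte identity, had 88.97 CPM in the mutant library and 31.5 CPM in the wild-type library and cebpa had 130.5 CPM in the mutant library and 100.3 CPM in the wild-type library. At 5.5 dpf the order was the other way round for hnf4a, with 6.82 CPM in the mutant and 31.6 CPM in the wild-type library, and foxa2 was level at 24.6 and 23.7 CPM in mutant and wild type. Members that the minimum left out leaned the other way. Of the 21 listed 4 reached 10 CPM only in the wild-type and 2 only in the mutant library, beside 12.9% and 22.8% of all listed genes. Members left out because the mutant library was under the minimum included pparaa (mutant 0.0675 and wild-type 27.9 CPM) and prox1, which had 0 reads in the mutant and 37.6 CPM in the wild-type library. In the other direction hlfa (mutant 52.2 and wild-type 3.14 CPM) and nr0b2, with 11.7 CPM in the mutant and 0 reads in the wild-type library, were left out.

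**Figure D3:**
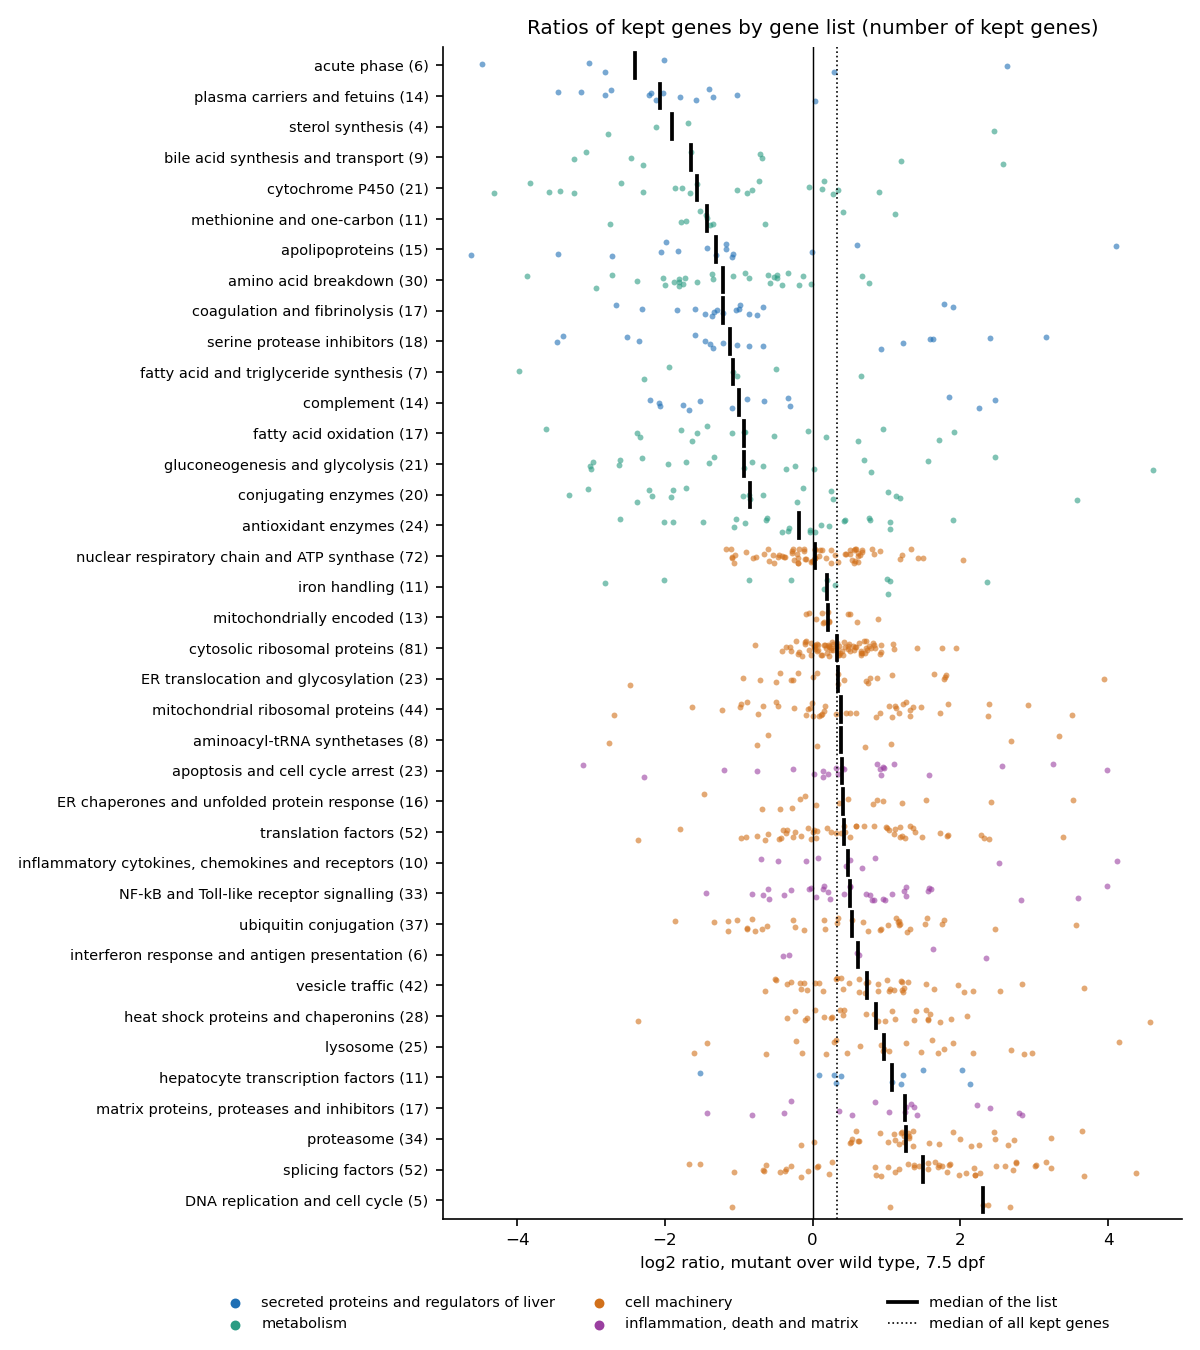
Log2 ratio of mutant over wild type at 7.5 dpf (horizontal axis) of the kept members of 38 gene lists, 1 point a gene, ordered by the list median (bar), with a solid line at 0 and a dotted line at the median of all kept genes, 0.33. Lists of secreted liver proteins and metabolism have medians from −2.41 to 0.19, apart from hepatocyte transcription factors at 1.07, and lists of cell machinery from 0.03 to 2.31.

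Cytosolic ribosomal and respiratory chain genes differed little between the libraries. The median of the ribosomal protein genes was that of all kept genes, 0.33, and the medians of respiratory chain genes were lower. Of 81 kept cytosolic ribosomal protein genes 76 lay within 2-fold, 5 were higher and none lower, and their median of 0.33 was −0.10 under TMM scaling. They took 5.43% of reads in the mutant and 5.02% in the wild-type library. The abundant rpl3 and rps2 had 3721 and 3999.7 CPM in the mutant and 3795 and 3417 CPM in the wild-type library, while rpl38 was 3.84-fold higher (mutant 47.1 and wild-type 12.2 CPM) and ENSDARG00000090186, described as 40S ribosomal protein S27-like, 3.35-fold higher (mutant 727 and wild-type 217 CPM). Of 72 nuclear genes of the respiratory chain and ATP synthase 60 lay within 2-fold, 6 were higher and 6 lower (median 0.03). The ATP synthase gene atp5f1b was 2.09-fold lower (mutant 867 and wild-type 1812 CPM), atp5f1c was level (mutant 1026 and wild-type 1099 CPM), and the complex I genes ENSDARG00000087216 and ndufb9 were 4.09-fold and 2.81-fold higher. All 13 protein genes of the mitochondrial genome lay within 2-fold, with 6.18% of reads in the mutant and 5.74% in the wild-type library and a median of 0.21 that was −0.12 and −0.23 under median-ratio and TMM scaling. Among them mt-co1 had 19350.3 CPM in the mutant and 17777 CPM in the wild-type library and mt-nd3, the farthest from 1, was 1.85-fold higher.

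Translation genes outside the cytosolic ribosome spread more widely, with medians close to that of all kept genes. Of 44 mitochondrial ribosomal protein genes 17 were 2-fold higher and 3 lower (median 0.38), of 52 translation factor genes 19 and 2 (0.43) and of 8 aminoacyl-tRNA synthetase genes 3 and 1 (0.39). Under TMM scaling the 3 medians were −0.054, −0.0076 and −0.049. The mitochondrial subunit genes mrps33 and mrps9 were 11.4-fold and 7.52-fold higher, whereas mrpl37 and mrpl36, the most abundant, were at 86.4 CPM in the mutant library and 138 CPM in the wild-type library and at 103 CPM in the mutant library and 103 CPM in the wild-type library. The elongation factor gene eef1a1l1 and the initiation factor gene eif5a were level, at 1.04-fold higher and 1.02-fold lower, and eif4e1c, of the cap-binding eIF4E family, and eif4a1a, an RNA helicase of initiation, were 10.5-fold and 5.24-fold higher. The lysine and threonine tRNA ligase genes (ENSDARG00000044220 and tars1) were 6.45-fold and 10.1-fold higher, and aimp1, a scaffold of the synthetase complex, 1.69-fold lower (mutant 96.9 and wild-type 164 CPM).

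Proteasome and splicing genes were higher in the mutant library beyond the lean of all kept genes. Of 34 kept proteasome genes, whose products degrade ubiquitin-tagged proteins, 25 were 2-fold higher and none was lower, with a median of 1.26. The summed level of the list was 5639.9 CPM in the mutant and 2035 CPM in the wild-type library. Of the core particle, the subunit alpha 1 gene ENSDARG00000074076 had 406 CPM in the mutant library and 158 CPM in the wild-type library, psma3 277 CPM in the mutant library and 124 CPM in the wild-type library and psmb3 171 CPM in the mutant library and 18.3 CPM in the wild-type library, 9.33-fold higher. The largest ratio was that of ENSDARG00000036715, a subunit of the regulatory cap, with 219 CPM in the mutant library and 17.5 CPM in the wild-type library. Of 52 kept splicing factor genes 33 were 2-fold higher and 3 lower (median 1.5). Of the 93 listed another 26 reached 10 CPM only in the mutant library, a share not far from the 22.8% of all listed genes, and 6 only in the wild-type library, beside 12.9% of all listed genes. The list summed to 8354 CPM in the mutant and 3202 CPM in the wild-type library.

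Within the splicing list the 3 largest ratios were those of ring proteins that sit on small nuclear RNAs. The Sm core gene snrpd2 was 20.8-fold higher, and lsm8 and lsm7, of the ring that binds U6 small nuclear RNA, 12.8-fold (mutant 213 and wild-type 16.7 CPM) and 9.36-fold higher (mutant 493 and wild-type 52.6 CPM). Another Lsm gene, lsm6, chosen after its value was seen, lay outside the minimum with 218 CPM in the mutant and 6.54 CPM in the wild-type library. The abundant hnrnpa0l, for an RNA-binding protein of the hnRNP family, was nearly level (mutant 545 and wild-type 455 CPM). The 3 genes that were 2-fold lower, named after their values were seen, were hnrnpc (mutant 45.9 and wild-type 147 CPM), sf3b1, of the U2 particle (mutant 20.5 and wild-type 58.8 CPM), and srsf7a, of the SR protein family (mutant 30.3 and wild-type 63.6 CPM). Medians of both lists stayed above 0 under each of the 12 alternatives tried. For the scalings this was fixed in advance, since their largest shift was −0.44.

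Among genes of the secretory route, vesicle traffic genes were 2-fold higher more often than the 30.5% of all kept genes, while those of translocation and folding in the endoplasmic reticulum (ER) were not. Of 42 kept vesicle traffic genes 18 were 2-fold higher and none lower (median 0.73); sec13, of the coat of vesicles that leave the endoplasmic reticulum, was 12.8-fold higher (mutant 283 and wild-type 22.1 CPM), arf5 7.16-fold (mutant 227 and wild-type 31.6 CPM), and rab2a and arf2a lay within 2-fold (mutant 266 and wild-type 173 CPM for rab2a, mutant 219.9 and wild-type 169 CPM for arf2a). Of 23 genes of ER translocation and glycosylation 6 were higher and 1 lower (median 0.34, −0.094 under TMM scaling). The oligosaccharyltransferase gene ENSDARG00000053832 was 15.3-fold higher (mutant 342 and wild-type 22.3 CPM) and sec62 5.53-fold lower (mutant 18.2 and wild-type 101 CPM), while rpn2 and ssr4 lay within 2-fold on the lower side (mutant 164 and wild-type 313 CPM for rpn2, mutant 229.7 and wild-type 313 CPM for ssr4). Of 16 ER chaperone and unfolded protein response genes 4 were higher and 1 lower (median 0.41, −0.025 under TMM scaling). Here pdia6, a disulfide isomerase gene, was 11.5-fold (mutant 449 and wild-type 38.97 CPM) and manf, a secreted ER stress protein gene, 5.34-fold higher (mutant 156 and wild-type 29.3 CPM). The regulator gene xbp1 was level (mutant 634 and wild-type 616 CPM) and ppib, a proline isomerase gene, 1.76-fold higher. The chaperone gene hsp90b1 was outside the minimum with 281 CPM in the mutant and 0 reads in the wild-type library.

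Of 28 heat shock protein and chaperonin genes 12 were 2-fold higher and 1 lower (median 0.86). The small heat shock protein genes hspb1 and hspb8 stood at opposite ends, 23.7-fold higher and 5.14-fold lower (mutant 10.7 and wild-type 55.2 CPM), and both had the other direction at 5.5 dpf. The abundant constitutive chaperone genes were nearly level, hspa8 (ENSDARG00000068992) with 6863 CPM in the mutant library and 5707 CPM in the wild-type library and hsp90ab1 with 1159 CPM in the mutant library and 1242 CPM in the wild-type library. Among 37 kept genes of ubiquitin conjugation 14 were 2-fold higher and 5 lower (median 0.54), beside 30.5% and 16.9% of all kept genes. The SUMO-conjugating gene ube2ib was 11.8-fold higher (mutant 178 and wild-type 15.1 CPM) and the ubiquitin-conjugating gene ENSDARG00000053444 5.55-fold higher (mutant 166 and wild-type 29.9 CPM). The ubiquitin precursor gene ubb (ENSDARG00000002369) was level (mutant 3134 and wild-type 3389 CPM). A second ubb gene, ENSDARG00000093313, had 166 CPM in the mutant library and 287 CPM in the wild-type library, and reads of such repeats can be split between copies.

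Most kept lysosome, cell cycle and matrix genes that passed 2-fold were higher in the mutant library. Macrophage markers stood beside them at 1886 CPM in the mutant and 233 CPM in the wild-type library and stellate and mesenchymal markers at 4385 and 1393 CPM in mutant and wild type, and their part in these groups was not tested. The stellate and matrix lists share genes, fn1 and sparc among them, so that their values are not independent. Of 25 kept lysosome genes 12 were 2-fold higher and 2 lower (median 0.96). The protease gene ctsl.1 had 439 CPM in the mutant library and 24.8 CPM in the wild-type library and the proton pump gene atp6v1c1 (ENSDARG00000035880) had 109.8 CPM in the mutant library and 13.97 CPM in the wild-type library, while psap, for the precursor of the saposins, was 1.17-fold lower (mutant 786 and wild-type 919 CPM). Only 5 genes of DNA replication and the cell cycle were kept, 4 of them 2-fold higher and 1 lower (median 2.31), with pcna, the sliding clamp of replication, at 273 CPM in the mutant library and 42.8 CPM in the wild-type library, the tubulin gene tuba8l4 at 212 CPM in the mutant library and 42.8 CPM in the wild-type library and the helicase subunit gene mcm6 at 81.1 CPM in the mutant library and 15.6 CPM in the wild-type library. Another 14 of the 28 listed reached 10 CPM only in the mutant library, beside 22.8% of all listed genes, among them mki67 and cdk1, which had 42.4 and 38.01 CPM there and 0 reads in the wild-type library. Of 17 matrix genes 10 were 2-fold higher and 1 lower (median 1.25). The gene sparc, for a collagen-binding protein of mesenchyme, was 7.13-fold higher (mutant 445 and wild-type 62.4 CPM) and the gelatinase gene mmp9, whose Description names a related gelatinase, 6.94-fold higher (mutant 70.9 and wild-type 10.2 CPM). Vitronectin (vtn, ENSDARG00000053831) and fibronectin (fn1, ENSDARG00000006526), which hepatocytes secrete into plasma, were within 2-fold on the lower side, with 318 and 374 CPM in the mutant and 563 and 491 CPM in the wild-type library.

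Cytokine, chemokine and receptor genes differed mostly among those the minimum leaves out, unlike genes of NF-kB and Toll-like receptor signalling. The same macrophage sums, and neutrophil sums of 1933 CPM in the mutant and 768 CPM in the wild-type library, stood beside both lists. The part of these cells was not tested. Of 48 listed cytokine, chemokine and receptor genes 10 were kept, 2 of them 2-fold higher and none lower (median 0.48), while 20 reached 10 CPM only in the mutant and 5 only in the wild-type library, beside 22.8% and 12.9% of all listed genes. The 2 higher ones were ccl25b and the tumour necrosis factor gene tnfb, with 193 CPM in the mutant library and 33.7 CPM in the wild-type library. The chemokine gene cxcl12 (ENSDARG00000037116), which is broadly made in stroma, had 438 CPM in the mutant library and 308 CPM in the wild-type library, and the lectin gene lgals3b had 205 CPM in the mutant library and 150.4 CPM in the wild-type library. Outside the minimum the chemokine gene cxcl18b had 499 CPM in the mutant and 4.78 CPM in the wild-type library. Of 33 kept genes of NF-kB and Toll-like receptor signalling 10 were 2-fold higher, a share close to the 30.5% of all kept genes, 1 was lower, and their median was 0.51. Of the 47 listed 7 reached 10 CPM only in the mutant and 2 only in the wild-type library, beside 22.8% and 12.9% of all listed genes. The immediate early genes fos and jun were level, at 2629 and 2169 CPM in the mutant and 2724 and 2197 CPM in the wild-type library. The largest ratios were those of birc2, an inhibitor of cell death in the tumour necrosis factor pathway, at 15.8-fold (mutant 159 and wild-type 10.03 CPM) and of jund at 12.04-fold higher (mutant 131 and wild-type 10.8 CPM). The feedback inhibitor gene nfkbiaa, chosen after its value was seen, was 7.05-fold higher (mutant 605 and wild-type 85.8 CPM).

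Of 6 kept genes of interferon response and antigen presentation 2 were 2-fold higher and none lower (median 0.61), beside 30.5% and 16.9% of all kept genes. The proteasome activator gene psme1 had 96.5 CPM in the mutant library and 18.97 CPM in the wild-type library and the class I gene mhc1zba had 199 CPM in the mutant library and 132 CPM in the wild-type library. For irf7 (mutant 120.2 and wild-type 38.9 CPM) and irf1b (mutant 116 and wild-type 154 CPM) the symbol and the authors' Description name different genes, so that their identity is uncertain. Of 23 genes of apoptosis and cell cycle arrest 5 were higher and 3 lower (median 0.40, −0.039 under TMM scaling), beside the same shares of all kept genes. The survival gene bcl2l1 was 9.56-fold higher (mutant 122 and wild-type 12.8 CPM), the cyclin gene ccng1 1.82-fold higher (mutant 847 and wild-type 465 CPM) and mcl1a level (mutant 1140.04 and wild-type 1037 CPM). The cell cycle inhibitor gene cdkn1a, named after its values were seen, had 92.5 CPM in the mutant library and 156 CPM in the wild-type library.

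Further kept members of the marker lists went either way. Macrophage markers lygl1, a lysozyme gene, and cyba, of the phagocyte oxidase, had 257 and 164 CPM in the mutant and 41.7 and 57.1 CPM in the wild-type library, and an mpeg1 gene (ENSDARG00000043093), for a pore-forming protein, had 57.9 CPM in the mutant library and 19.6 CPM in the wild-type library. Of the neutrophil list, itln3 was 12.4-fold higher, cfl1l, which skin also makes, 2.07-fold higher and pgd, a pentose phosphate enzyme gene of most cells, level (mutant 434 and wild-type 425 CPM). The mesenchymal list held ifitm1 (mutant 1127 and wild-type 219 CPM) and tcf21, with 56.5 CPM in the mutant library and a wild-type level at the minimum. In the biliary list anxa13 was 4.66-fold higher and the bicarbonate carrier gene slc4a4 (ENSDARG00000044808) 3.51-fold lower. In the skin list the claudin gene cldni was 9.14-fold higher (mutant 756 and wild-type 82.8 CPM), the keratin gene krt97 4.27-fold lower (mutant 81.1 and wild-type 346 CPM) and cyt1 level (mutant 2773 and wild-type 2802 CPM). Of the intestine list fabp2 was 4.28-fold lower (mutant 13.2 and wild-type 56.3 CPM) and apoa4b.1 and apoa4b.2 2.25-fold and 3.54-fold lower, although the Descriptions of these 2 name other apolipoproteins. The muscle genes tpma and tnnc2 were 8.74-fold and 7.32-fold higher, pvalb2, for a calcium buffer, 2.41-fold higher (mutant 519.5 and wild-type 216 CPM) and eno3, given above with glycolysis, lower. The pancreas genes ctrb.1 and ela2 were 1.55-fold and 3.22-fold lower.

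The 38 gene lists and the marker lists together took in 932 of the 3645 kept genes, and the 2713 outside them had 31.1% of genes 2-fold higher, 16.3% 2-fold lower and a median log2 ratio of 0.36. They were also grouped by the first 2 words of the Description, a grouping added after the files were seen, into families of at least 8 genes. Actin-related proteins, a family that includes subunits of the actin-branching Arp2/3 complex, had the highest median, 1.48, with 7 of 8 members 2-fold higher and none lower. DNA-directed RNA polymerase subunits followed at 0.87, with 7 of 15 higher and none lower. RNA-binding proteins stood at 0.79 (4 of 10 higher and 1 lower) and guanine nucleotide-binding proteins at 0.66 (5 of 12 higher and none lower). By the same grouping solute carriers, which move nutrients and ions over membranes, had the lowest median, −0.89, with 6 of 12 members 2-fold lower and 3 higher, and short-chain dehydrogenases of the SDR family the next, −0.22 (3 of 11 lower and 1 higher). Mitochondrial import proteins were at 0.55 (5 of 15 higher and 2 lower), E3 ubiquitin ligases at 0.54 (8 of 26 higher and 5 lower) and zinc finger proteins at 0.45 (6 of 28 higher and 5 lower).

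The ratio depended weakly on level and on length. In 5 equal bins of mean CPM the median log2 ratio was 0.18 in the lowest, 0.48, 0.59 and 0.39 in the next 3 and 0.08 in the highest, which holds the abundant liver transcripts. The lowest bin had 69.7% of its genes within 2-fold against 43.8 to 54.2% in the others, since a gene close to the minimum in both libraries cannot have a large ratio. In 5 bins of gene length the median was 0.49 among the shortest genes and 0.22 among the longest, and across genes, which are not independent, Pearson's r of log2 length with the log2 ratio was −0.09. At the edge of the minimum, tcf21 in wild type and ENSDARG00000086747, described as Toll-interacting protein, in the mutant (10.02 CPM) were the last genes in, and ubl4a (mutant 9.98 and wild-type 42.5 CPM) and a netrin-1 gene, ENSDARG00000033733 (mutant 9.98 and wild-type 24.4 CPM), the first out.

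Genes that the minimum left out were numerous and often at 0 in 1 library. At least 10 CPM in the mutant library alone were found for 2968 listed genes, with a median of 28.8 CPM there, and 1753 of them had 0 reads in the wild-type library. The converse held for 1682 genes with a median of 25.2 CPM in wild type, of which 728 had 0 reads in the mutant library. The remaining 4708 of the 13003 listed genes were under the minimum in both. Genes past the minimum in the mutant alone took 12.04% of mutant reads, and those past it in wild type alone 6.02% of wild-type reads. Highest among those with 0 wild-type reads was zgc:174917, described as a dioxygenase, at 458 CPM in the mutant library. With the count of 0 set to 3 reads, it was at least 5646-fold higher. Such a bound covers the counting of reads only, and not molecules lost before amplification. Then came tcnba, of the vitamin B12 carriers (449 CPM), irg1l, which makes itaconate in inflamed tissue (326 CPM), gcga (314 CPM) and the fibrillar collagen gene col5a1 (288 CPM). Highest among those with 0 mutant reads were an EGF receptor gene, ENSDARG00000056909 (269 CPM in wild type, at least 2654-fold lower in the mutant by the same kind of bound), and the chymotrypsin gene ctrb.3 (256 CPM). They were followed by c8a, of the membrane attack complex (201 CPM), bckdha, of branched-chain amino acid breakdown (186 CPM), and the clotting factor IX gene f9 (ENSDARG00000029493; 173 CPM). The EGF receptor gene, c8a, bckdha and f9 had 121, 129, 221 and 87.3 CPM in the 5.5 dpf mutant library, so that the 0 was that of the 7.5 dpf mutant library.

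**Figure D4:**
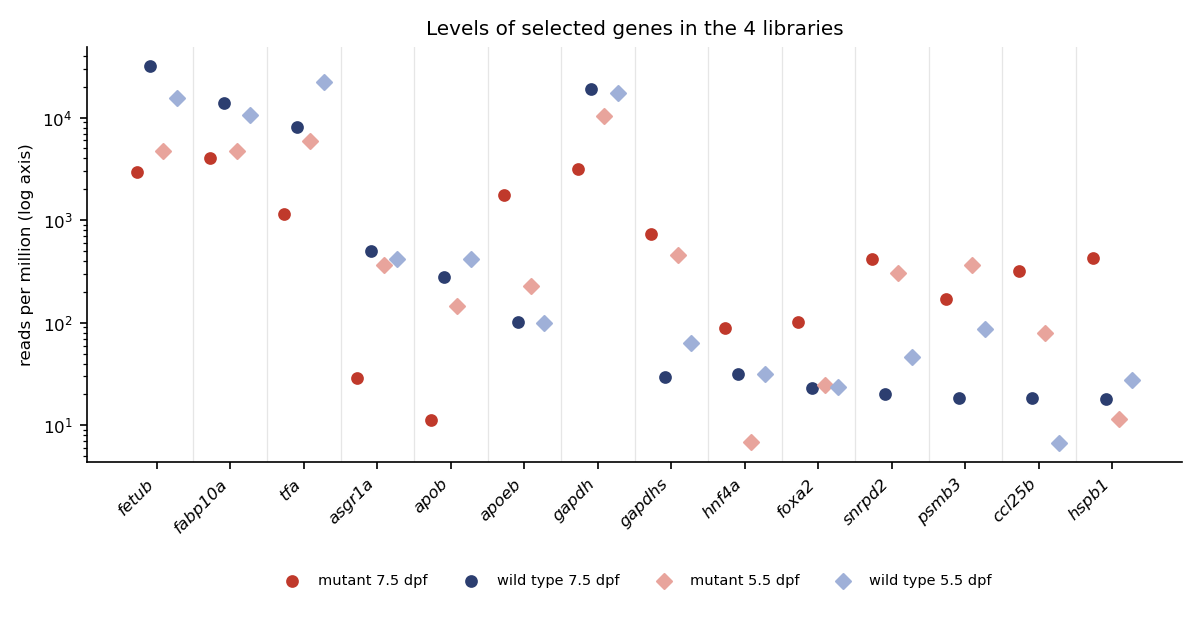
CPM (log axis) of 14 genes in the 4 libraries, 1 point a library, with 7.5 dpf as circles and 5.5 dpf as diamonds. The first 5 genes and gapdh are lowest in the 7.5 dpf mutant library, apoeb, gapdhs, snrpd2 and ccl25b are higher in the mutant at both stages, and hnf4a and hspb1 change sides between the stages.

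The comparison of mutant with wild type at 5.5 dpf shares no library with that at 7.5 dpf. Of its own 4010 genes past the same minimum, 26.3% were 2-fold higher and 11.6% 2-fold lower in the mutant. Both minimums were passed by 2608 genes (71.6% of those kept at 7.5 dpf and 65.0% of those kept at 5.5 dpf). Among these, 30.0% were 2-fold higher and 18.3% 2-fold lower at 7.5 dpf, and 24.3% and 12.1% at 5.5 dpf. The log2 ratios of the 2 stages had a Pearson's r of 0.42 and a Spearman coefficient of 0.41 across these genes, as a description of 4 libraries. Both stages had 326 genes 2-fold higher in the mutant, 41.7% of the 782 at 7.5 dpf and 51.3% of the 635 at 5.5 dpf, and 144 genes 2-fold lower, 30.3% of 476 and 45.7% of 315. The median was 0.30 at either stage, and the spread was wider at 7.5 dpf, with an interquartile range of 1.82 against 1.41 at 5.5 dpf.

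Several groups differed in size between the stages, by the values of the members kept at both. Plasma carriers and fetuins had a median of −2.02 at 7.5 dpf and −0.75 at 5.5 dpf, with 12 and 6 of 13 members 2-fold lower. Coagulation and fibrinolysis genes stood at −1.12 and −0.087, with 10 and 1 of 16 members lower at 7.5 and 5.5 dpf. Gluconeogenesis and glycolysis stood at −1.13 at 7.5 dpf and 0.025 at 5.5 dpf (10 and 3 of 20 lower), and amino acid breakdown at −1.35 and −0.48 (16 and 5 of 29 lower). Cytochrome P450 genes were low at both stages, −1.57 at 7.5 dpf and −1.83 at 5.5 dpf. Proteasome genes were close at 1.24 and 1.04 (24 and 17 of 33 higher), heat shock proteins and chaperonins at 0.86 and 1.42 (12 and 18 of 28 higher) and splicing factors at 1.56 and 0.72 (29 and 18 of 43 higher), each at 7.5 and then 5.5 dpf. Hepatocyte transcription factors were at 1.13 at 7.5 dpf and −0.59 at 5.5 dpf over 6 members. None of these differences between stages was tested, as 1 library a group allows no test.

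**Figure D5:**
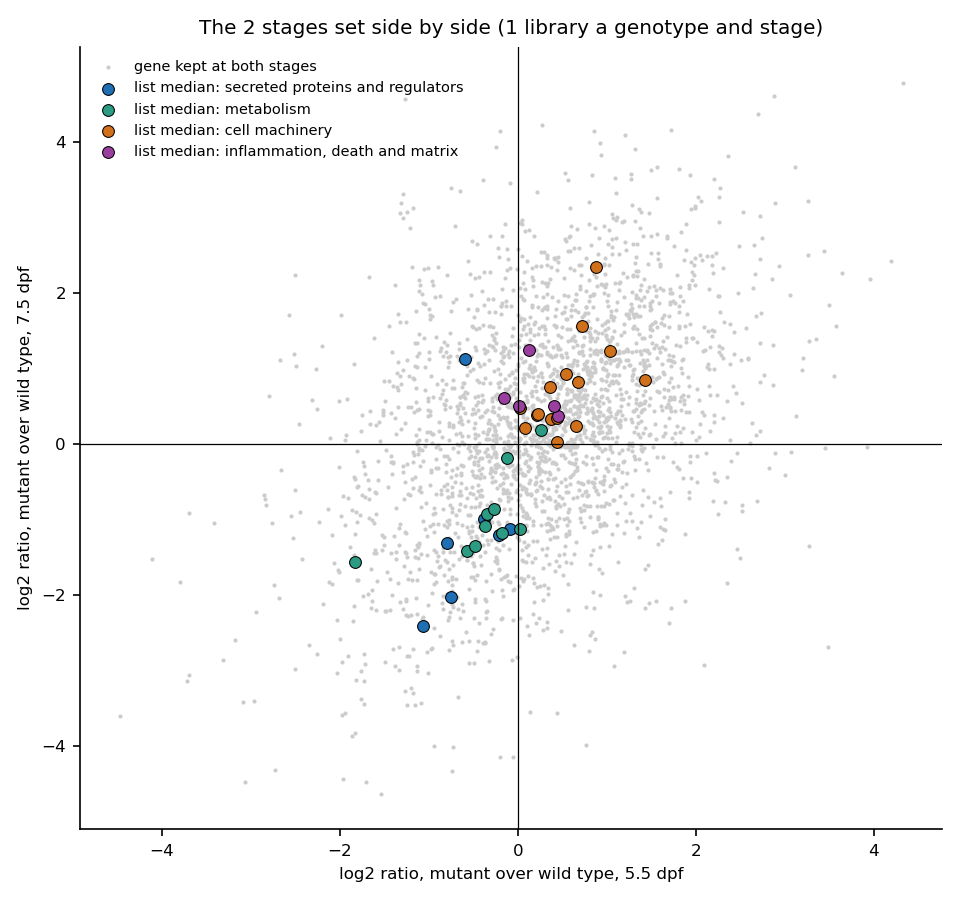
Log2 ratio of mutant over wild type at 7.5 dpf (vertical axis) against the same at 5.5 dpf (horizontal axis) for 2608 genes kept at both stages (grey) and for list medians (coloured). Medians of secreted protein and metabolism lists lie mostly in the lower left and those of cell machinery in the upper right; hepatocyte transcription factors lie above 0 at 7.5 dpf and below 0 at 5.5 dpf.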

How the data were processed

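Full-length cDNA of sorted liver cells was amplified by Smart-seq2 and sequenced, per the labels' protocols. The submitters' processing notes name TopHat2 2.0.12, Bowtie2 2.2.3, HTSeq 0.6.0 and DESeq 1.16.0; the genome build, annotation and strand setting are not stated there. The authors deposited CPM values (reads per 1000000 counted reads) of both libraries and a log2 fold change in each comparison table, and RPKM of every gene and library. From the CPM, whole reads were recovered in each library within a tolerance of 0.01, and values below 1 read, which stand for none, were taken as 0 reads. The log2 ratio was taken from the 2 CPM columns with no pseudocount, for genes with at least 10 CPM in both libraries. Intervals (95%) of a ratio come from its 2 read counts, and a count of 0 was set to 3 reads for a lower bound; both cover counting error only. No replicate exists and no test was made. At 5.5 dpf the CPM of 65 kept genes were taken from RPKM and gene length.

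Samples were grouped by genotype and stage as labelled. The members and the 38 gene lists and 14 marker lists were chosen with earlier results of these data known. Matching of list names to symbols and Descriptions was corrected after the files were seen, which removed uox and a few false matches and renamed the heat shock list. Symbols came from a table of gene names, which gave one to 3138 of the 3645 kept genes. Genes named in the text are the 12 highest and 12 lowest ratios with a symbol, the 10 most abundant, the 8 largest gains and losses in CPM, in each list with at least 4 kept members the 2 most abundant and the 2 largest ratios, the 2 genes on either side of the minimum and the 5 highest with 0 reads in the other library; others, left-out members of lists given as examples among them, were chosen after their values were seen. A few genes are not reported here. In all, 12 alternatives of minimum, pseudocount, scaling and source were tried. The calculation was tested on simulated data. Python 3.11.15 with pandas 2.3.3, numpy 2.4.6, scipy 1.17.1 and matplotlib 3.10.9 was used, and edgeR 4.0.16 in R 4.3.3 for TMM scaling.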

Additional observations from a re-analysis of the deposited data

Results flagged for a closer look

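Given here are 8 genes picked by the naming rule and kept at both stages for which the mutant was at least 2-fold on one side of wild type at 7.5 dpf and at least 2-fold on the other at 5.5 dpf. Each side is 1 library a genotype, so that the difference between the stages was not tested. Higher at 7.5 dpf and lower at 5.5 dpf were hspb1, with log2 ratios of 4.57 and −1.26, c3a.2 with 2.25 and −2.50, the claudin gene cldni with 3.19 and −1.31, and the tropomyosin gene tpma with 3.13 and −1.18. Lower at 7.5 dpf and higher at 5.5 dpf were abcc2 with −1.65 and 1.43, hspb8 with −2.36 and 1.69, the keratin gene krt97 with −2.09 and 1.23, and ENSDARG00000086747, described as Toll-interacting protein, with −1.83 and 2.35. The receptor gene nr1h4, which was named after its values were seen, had log2 ratios of 1.19 and −2.51. Among all 2608 genes kept at both stages, 45 were 2-fold higher at 7.5 dpf and 2-fold lower at 5.5 dpf, and 36 the reverse.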

How the results depend on the processing

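The median log2 ratio of 0.33 became 0.39, 0.26 and 0.14 with a minimum of 5, 20 and 50 CPM in both libraries, 0.84 with 10 CPM in at least 1 library and 0.59 with no minimum (both with a pseudocount of 1), 0.32 with the pseudocount alone, 0.20 with totals that leave out the most abundant genes and 0.34 without shared symbols. It was 0.00 by construction under median-ratio scaling and −0.10 under TMM scaling. The counts of 1111 genes 2-fold higher and 616 lower became 700 higher at a minimum of 20 CPM, 264 and 213 at 50 CPM, 3969 and 2228 with 10 CPM in at least 1 library, and 5555 and 3187 with no minimum, as fewer or more genes enter, and 703 higher under TMM scaling. Medians that changed sign under median-ratio and TMM scaling were those of iron handling (−0.14 and −0.25), mitochondrially encoded genes (−0.12 and −0.23) and skin markers (−0.059 and −0.16). Under TMM scaling alone they were those of cytosolic ribosomal proteins (−0.10), mitochondrial ribosomal proteins (−0.054), translation factors (−0.0076), aminoacyl-tRNA synthetases (−0.049), ER translocation (−0.094), ER chaperones (−0.025) and apoptosis and cell cycle arrest (−0.039). The scaling's own shift of −0.33 or −0.44 accounts for these by construction. The median of sterol synthesis became 1.69 with 10 CPM in at least 1 library and 2.04 with no minimum, where more of its genes enter. Of the 190 genes picked by the naming rule, 77 were 2-fold higher and 61 were 2-fold lower. None of these changed sign under any of the 12 alternatives that kept it. That outcome was fixed in advance, since the largest scaling shift was −0.44 and a minimum or pseudocount cannot turn a ratio round. Genes close to 0 can change sign with the scaling. No paired analysis was possible because each group has 1 library and the columns carry no replicate numbers, and for the same reason no replicate could be left out. The depth of reads limits little here, but the number of molecules behind the reads is not known. The missing replicates limit every value.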
